A study of Mus musculus with 13 samples.

Results

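Cyp4a10, Cyp4a12a and Cyp4a14 are 3 of the 27141 genes in deposited RNA-seq tables of mouse hepatocytes, and they were taken by gene symbol. They were chosen with the levels of these libraries already known, so their levels and fold changes are given here as a description, with no p-value. Each encodes a cytochrome P450 of the 4A subfamily, an enzyme of the endoplasmic reticulum that places a hydroxyl group on the terminal (omega) carbon of a fatty acid. Cytochrome P450 reductase, encoded by Por, supplies the electrons, alcohol and aldehyde dehydrogenases carry the product on to a dicarboxylic acid, and peroxisomes then shorten that acid by beta oxidation. In mouse liver Cyp4a10 and Cyp4a14 are classical target genes of PPARA, the fatty acid-activated nuclear receptor that pairs with RXRA, and Cyp4a12a is known for higher expression in males than in females.

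The series was made to show what each component of a chemical cocktail contributes. Hepatocytes of mice labelled WT (C57BL/6 background, per the methods) and injured with carbon tetrachloride, called dHeps for damaged hepatocytes, were isolated by collagenase perfusion and cultured for 16 days in serum-free hepatocyte maintenance medium. Cells received the solvent DMSO, the complete cocktail 5C, or 5C with 1 component removed. The component removed was the ROCK inhibitor GSK429286A in 5C-G, the protein kinase D inhibitor CID755673 in 5C-C, ETC-1002 (bempedoic acid, described in the study as an AMPK activator) in 5C-E, the adenylate cyclase activator forskolin in 5C-F, and the plant glycoside Salidroside in 5C-S. Each group had 2 libraries, named A and B here, except 5C-S, which had 1. All groups share the injury, the medium and the culture time, no uninjured cells are among these libraries, and the methods describe mice of both sexes. The study's methods define replicates as biologically separate, but the labels do not name the animal or culture behind each library, and the p-values below measure the spread between these libraries.

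Total counts ran from 30195867 to 45491932 per library. All 9 hepatocyte markers found in the tables were above the floor of 3 counts in every group. Their summed FPKM (a read count scaled to transcript length and library size) was 11744 to 12998 in DMSO, 12097 to 12312 in 5C, 7224 to 8674 in 5C-G, 5485 to 5993 in 5C-C, 3637 to 4193 in 5C-E, 19053 to 23648 in 5C-F and 8166 in 5C-S. Macrophage markers were also present in these hepatocyte cultures: the summed FPKM of all 9 was 4814 to 4848 in DMSO, 510 to 590 in 5C and 4780 to 6741 in 5C-G, and it was 611 to 1926 in the other groups. Stellate cell and fibroblast markers summed to 900 to 2342, cholangiocyte markers to 112 to 338 and liver endothelial markers to 6.16 to 30.8 over all groups, and the endothelial markers Pecam1 and Cdh5 were at the floor in 5C and 5C-F. The largest term of the hepatocyte sum in every library was Alb, the albumin gene. It made up 9711 of 12998 in DMSO library A and 2553 of 5485 in 5C-C library B, so these sums follow Alb more than the other markers. In bulk RNA, fewer cells of a type and less RNA per cell cannot be told apart.

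Cyp4a10 (ENSMUSG00000066072) lies on chromosome 4 of GRCm39 from 115375461 to 115390849 on the plus strand, with 13 exons in its canonical transcript. Cyp4a14 (ENSMUSG00000028715) lies next to it from 115343397 to 115353344 on the minus strand, with 12 exons. Cyp4a12a (ENSMUSG00000066071) lies from 115156243 to 115190012 on the plus strand, also with 12 exons. The genes are similar in sequence, which bears on how firmly each count belongs to its gene. Of all 100-base stretches of the canonical transcript, 35.9% in Cyp4a12a were also found in Cyp4a12b, 15.6% in Cyp4a10 were found in another Cyp4a transcript, mostly that of Cyp4a32, and 0% in Cyp4a14 were found in any other. The treatment of shared reads is not given in the sources used here, so the counts of Cyp4a12a, and in part those of Cyp4a10, are uncertain between copies, while Cyp4a14 shares no such stretch. A long noncoding RNA gene, Gm52676, is annotated across Cyp4a14 on the opposite strand, and whether the counting used strand is not stated.

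Both Cyp4a10 and Cyp4a14 were high in 5C and 5C-F, intermediate in 5C-S, low in 5C-G and DMSO, and lowest in 5C-C and 5C-E. Cyp4a12a followed another order. Its mean FPKM was the lowest of the 3 in DMSO, 5C, 5C-G, 5C-F and 5C-S. In 5C-C its mean (0.318) lay above that of Cyp4a10 (0.224). This order rests on 5C-C library A (0.573 against 0.376), since library B had 0.0634 against 0.0728. In 5C-C and 5C-E its mean lay above that of Cyp4a14. The plot of read counts by library shows all 13 values of each gene.

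**Figure D1:**
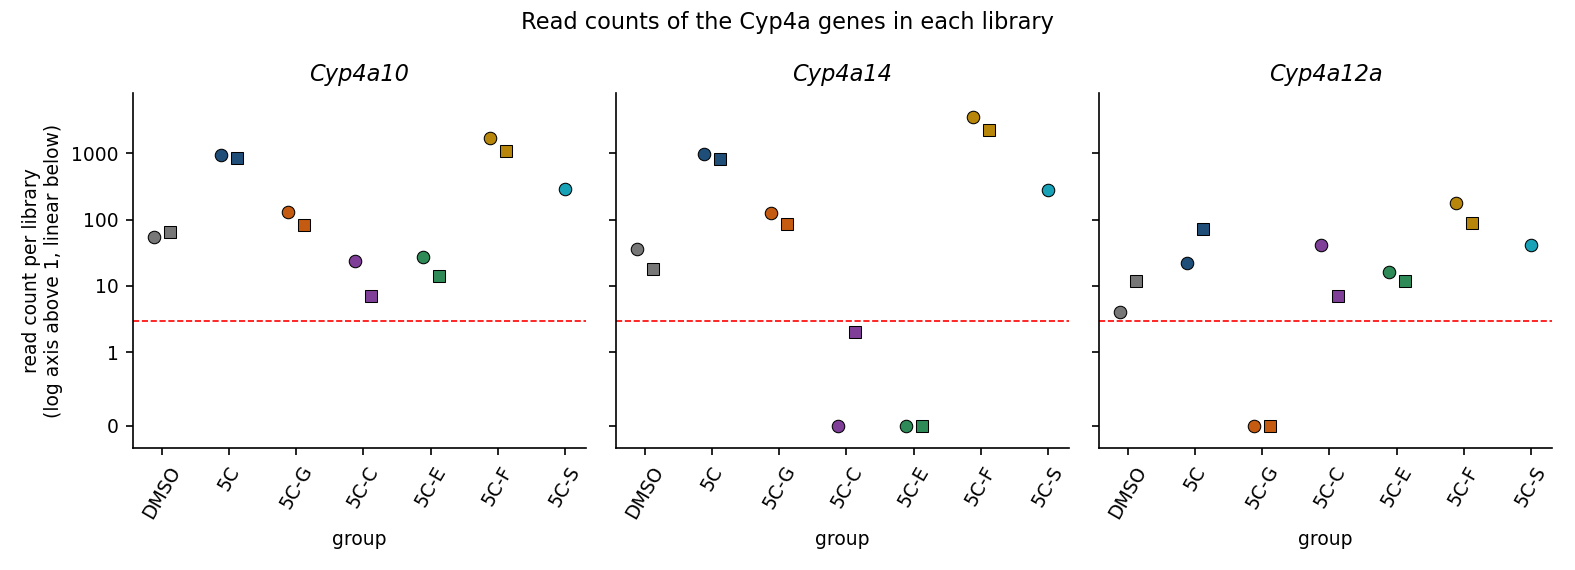
Read count of Cyp4a10, Cyp4a14 and Cyp4a12a in each library (vertical axis, logarithmic above 1 and linear below) by group (horizontal axis), with library A as circles, library B as squares, and a dashed line at the floor of 3 counts. Cyp4a14 lay at 0 and 2 counts in 5C-C and at 0 in both 5C-E libraries, against 975 and 810 in 5C, and Cyp4a12a lay at 0 in both 5C-G libraries.

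Cyp4a14, a 4A hydroxylase known for its induction by PPARA agonists, had counts of 36 and 18 in DMSO, 975 and 810 in 5C, 128 and 85 in 5C-G, 0 and 2 in 5C-C, 0 and 0 in 5C-E, 3538 and 2285 in 5C-F and 277 in 5C-S. The corresponding FPKM was 0.3 ± 0.11 (SD, n = 2) in DMSO, 10.7 ± 0.728 in 5C, 1.21 ± 0.449 in 5C-G, 28 ± 10.1 in 5C-F and 3.12 in the 5C-S library. From 5C-F down through 5C, 5C-S and 5C-G to DMSO, neighbouring groups did not overlap in FPKM. 5C-C and 5C-E, the groups below them, both lay at or under 3 counts per library and cannot be ranked against each other.

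Cyp4a10 had counts of 54 and 64 in DMSO, 930 and 862 in 5C, 129 and 82 in 5C-G, 24 and 7 in 5C-C, 27 and 14 in 5C-E, 1709 and 1080 in 5C-F and 291 in 5C-S. Its FPKM was 0.837 ± 0.194 (SD, n = 2) in DMSO, 13.2 ± 0.119 in 5C, 16.6 ± 6.18 in 5C-F and 4.04 in 5C-S. It was 1.48 ± 0.592 in 5C-G, and reached 0.224 ± 0.214 in 5C-C and 0.277 ± 0.105 in 5C-E. The libraries of 5C-F (12.2 and 20.9) spanned those of 5C (13.1 and 13.3), and those of 5C-E and 5C-C overlapped as well. The other neighbours in the order, namely 5C, 5C-S, 5C-G, DMSO and 5C-E, did not overlap.

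Cyp4a12a, the male-biased member, had counts of 4 and 12 in DMSO, 22 and 71 in 5C, 0 and 0 in 5C-G, 42 and 7 in 5C-C, 16 and 12 in 5C-E, 181 and 89 in 5C-F and 41 in 5C-S. Its mean FPKM did not exceed 1.4 ± 0.746 (SD, n = 2, in 5C-F), and it was 0.612 ± 0.483 in 5C. The libraries of a group differed widely, so that 5C, 5C-S and 5C-C overlapped, and 5C overlapped 5C-F. The 5C-G group stood apart with no read in either library, where 3 counts is the upper limit that a count of 0 allows at this depth, for counting error only. Its close copy Cyp4a12b also had 0 counts in both 5C-G libraries, and it had 0 in both 5C-F libraries, where Cyp4a12a was highest.

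Xist, the RNA of the inactive X chromosome in female cells, was read beside this gene. Its FPKM was 14.1 and 13 in DMSO, 23.5 and 16.6 in 5C, 8.41 and 3.42 in 5C-G, 3.67 and 7.9 in 5C-C, 23.1 and 15.7 in 5C-E, 6.06 and 11.3 in 5C-F and 20.1 in 5C-S. Xist fell in 5C-G against 5C (log2 fold change -1.66 ± 0.37 SE, adjusted p = 0.00366 by edgeR's quasi-likelihood test with Benjamini-Hochberg adjustment over all 19884 genes tested, the test used throughout) and in 5C-C (-1.62 ± 0.37, adjusted p = 0.00275). In 5C-F its value of -1.12 ± 0.37 did not pass (adjusted p = 0.06), though it was called with no filter on low counts and with only the libraries of both groups fitted. A gene is called when its adjusted p is under 0.05 and its log2 fold change is beyond 1 or -1. The call in 5C-G was lost without 5C-G library B (adjusted p = 0.0619), and both calls were lost with an offset for GC content and transcript length (adjusted p = 0.0829 in 5C-G and 0.597 in 5C-C). The Y-linked genes listed to check for male cells (Ddx3y, Eif2s3y, Kdm5d and Uty) matched no row of the tables used here, so Xist is the sole sex-linked gene read. The tables hold 0 genes with a count of 0 in every library, so a gene without a read in any library may have no row. Whether the Y-linked genes are absent for that reason was not tested. The share of male and female cells per library was not measured, and its part in the level of Cyp4a12a was not tested.

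The first comparison, 5C against DMSO, asks what the complete cocktail changes. All 3 genes passed the filter on low counts, and all 3 were higher in 5C. Cyp4a14 was higher by 5.05 ± 0.38 (log2 fold change ± SE, 33.2-fold), Cyp4a10 by 3.91 ± 0.45 (15-fold) and Cyp4a12a by 2.52 ± 1.00 (5.74-fold), and no library of 5C overlapped one of DMSO for any of them. The value of Cyp4a12a was 1.33 without 5C library B and 3.65 without DMSO library B. Of all 19884 genes tested, 11.7% were higher by more than 1 on the log2 scale, a value given as background only since the genes were chosen on these levels. Albumin (Alb), the main secreted protein of hepatocytes, did not pass the test in the same comparison (-0.03 ± 0.19, adjusted p = 0.973). The summed hepatocyte markers of 5C, with Alb as the largest term, lay within the range of DMSO. Of 9 hepatocyte markers 0 were called, beside 4.55% of all genes called, with log2 fold changes from -0.66 to 0.96. The summed macrophage markers were lower in 5C, with 8 of 9 markers called lower, beside 4.55% of all genes called, and their part in the result was not tested.

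**Figure D2:**
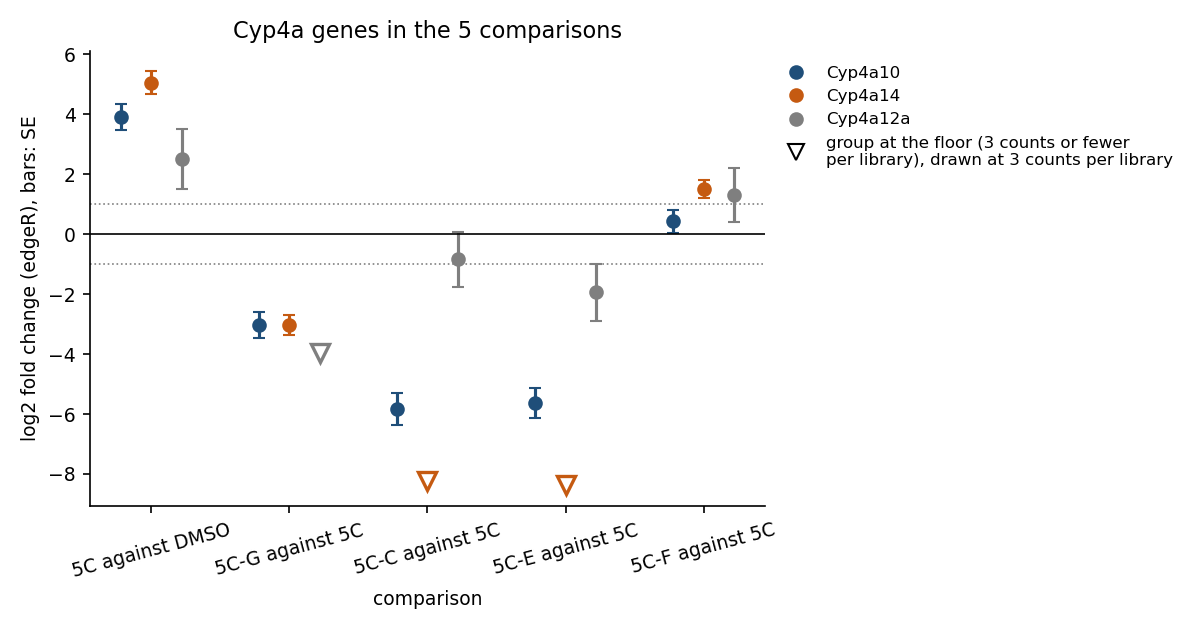
Log2 fold change of each gene (vertical axis) in the 5 comparisons (horizontal axis), with filled circles for edgeR values and bars for 1 SE. Open triangles mark a group at 3 counts or fewer per library and are drawn at 3 counts per library, and dotted lines mark 1 and -1. Cyp4a10 and Cyp4a14 lay near -3 without GSK429286A and below -5 without CID755673 or ETC-1002.

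The other comparisons set 5C with 1 component removed against complete 5C. They share the 5C libraries, so a chance deviation of those libraries enters each of them alike. Without CID755673, Cyp4a10 was lower by 5.83 on the log2 scale (-5.83 ± 0.52, or 56.9-fold), with -7.27 without 5C-C library A and -4.99 without 5C-C library B. Cyp4a14 went from 1785 counts in the 5C libraries together to 2 in the 5C-C libraries together. The ratio of these counts, corrected for library size, was 935, with an exact 95% counting interval of 259 to 7728 that covers counting error only. Both counts came from 5C-C library B. The ratio was 553 without 5C-C library A, and without 5C-C library B the gene was at least 254-fold lower, with the floor at 3 counts. Cyp4a12a was at -0.83 ± 0.92 with overlapping groups (-3.05 without 5C-C library A and 0.40 without 5C library B). Thus 2 of 3 members lay beyond a log2 fold change of -1, beside 19.9% of all genes tested. Alb fell in the same comparison (-1.50 ± 0.19, adjusted p = 4.6e-05), and the summed hepatocyte markers were 5485 to 5993 against 12097 to 12312 in 5C. Of 9 macrophage markers, 4 were called higher and 0 lower (summed FPKM 946 to 1599 against 510 to 590), and of 6 cholangiocyte markers 1 was called higher, the keratin gene Krt19 (summed FPKM 300 to 338 against 132 to 152), beside 20.2% of all genes called.

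Without ETC-1002, Cyp4a14 had no read in either library and was at least 334-fold lower than in 5C, taking 3 counts in each 5C-E library as the floor. This bound and the ratio in 5C-C are different quantities and do not rank the groups. Cyp4a10 was at -5.63 ± 0.51 (49.4-fold lower) and Cyp4a12a at -1.94 ± 0.96 (-0.72 without 5C library B), so that 3 of 3 members lay beyond -1, beside 8.93% of all genes tested. Alb fell by 2.03 on the log2 scale (-2.03 ± 0.20, adjusted p = 9.45e-06), and the summed hepatocyte markers were 3637 to 4193. The summed macrophage markers were 679 to 798 and the summed cholangiocyte markers 147 to 199. In 5C-C and 5C-E the part of these markers in the members' levels was not tested.

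Without GSK429286A, Cyp4a10 was at -3.04 ± 0.43 (8.25-fold lower) and Cyp4a14 at -3.02 ± 0.33 (8.12-fold lower). Cyp4a12a, at 0 counts, was at least 15.6-fold lower with the floor at 3 counts per library, a bound of 6.74-fold without 5C library B and 24.4-fold without 5C library A. All 3 members lay beyond -1, beside 16.1% of all genes tested. Macrophage markers rose in this comparison, 8 of 9 being called higher, beside 13.1% of all genes called. Of 6 cholangiocyte markers 3 were called lower and 0 higher, and of 7 endothelial markers 2 lower and 0 higher. Of 10 stellate cell and fibroblast markers 2 were called higher and 2 lower. The summed hepatocyte markers were 7224 to 8674, with 3 of 9 called lower and 1 higher. Alb was at -0.99 ± 0.19 (adjusted p = 0.00126). The part of these markers in these differences was not tested.

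Without forskolin, Cyp4a14 was higher than in 5C by 1.51 ± 0.30 (2.84-fold), with counts of 3538 and 2285 that lay apart from the 975 and 810 of 5C. Cyp4a12a was at 1.30 ± 0.90 and Cyp4a10 at 0.43 ± 0.39, both with overlapping groups. Without 5C-F library A Cyp4a10 was at -0.06, and Cyp4a12a ran from 0.56 without 5C-F library A to 2.51 without 5C library B. Hence 2 of 3 members lay beyond 1, beside 10.8% of all genes tested, and 1 of 3 when 5C library A or 5C-F library A was left out. The summed hepatocyte markers also were higher in 5C-F (19053 to 23648), with 2 of 9 called higher and Alb at 0.85 ± 0.19 (adjusted p = 0.0106). Of the macrophage markers 8 of 9 were called higher, and 4.84% of all genes were called in this comparison. Their part in the level of Cyp4a14 was not tested.

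Without Salidroside there was 1 library and therefore no test. In it Cyp4a10 (291 counts) was 3.31-fold lower and Cyp4a14 (277 counts) 3.45-fold lower than in 5C, whereas Cyp4a12a (41 counts) lay between its 5C libraries. Thus 2 of 3 members lay beyond -1, beside 10.6% of all genes. The summed hepatocyte markers were 8166 in this library.

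Set against DMSO in place of 5C, the groups that lost a component fell on both sides of the solvent level. In 5C-F Cyp4a14 was 94.2-fold, Cyp4a10 20.3-fold and Cyp4a12a 14.1-fold higher than in DMSO, each with no overlap. The summed hepatocyte markers were 19053 to 23648 there against 11744 to 12998 in DMSO, and their part was not tested. Cyp4a10 in 5C-G was at 0.87 ± 0.44, with no overlap. In the 5C-S library Cyp4a10 was 4.55-fold and Cyp4a12a 4.58-fold higher than in DMSO. Cyp4a14 in 5C-G remained above DMSO (2.03 ± 0.38), as it did in 5C-S (9.62-fold), while Cyp4a12a in 5C-G was at least 2.71-fold lower, a bound of 4.22-fold without DMSO library A and 1.2-fold without DMSO library B. Thus 1 of 3 members lay beyond 1 in 5C-G, beside 11.8% of all genes tested, and 1, Cyp4a12a, beyond -1, beside 11.6%. The latter count rests on DMSO library B, since the bound without it no longer reaches -1. Cyp4a10 in 5C-C (-1.92 ± 0.52) and in 5C-E (-1.71 ± 0.50) lay below DMSO with no overlap. The value in 5C-C was -3.35 without 5C-C library A and -1.08 without 5C-C library B. Of 9 hepatocyte markers, 5 were called lower and 1 higher (Fgb, a fibrinogen chain, at 1.57 ± 0.17, adjusted p = 4.84e-06) in 5C-C against DMSO, beside 22.1% of all genes called. In 5C-E 7 were called lower and 0 higher, beside 6.09%. Macrophage markers were lower than in DMSO as well, 8 of 9 being called lower in both groups, and of 6 cholangiocyte markers 4 were called higher in 5C-C and 3 in 5C-E. The part of these markers in these values was not tested. Cyp4a14 in 5C-E was at least 9.91-fold lower than in DMSO, and its 2 counts in 5C-C stood against 54 in DMSO (ratio 28.3, exact 95% counting interval 7.46 to 239). This ratio was 16.7 without 5C-C library A, and without 5C-C library B the gene was at least 7.55-fold lower than in DMSO. Cyp4a12a was at 1.69 ± 1.00 in 5C-C and 0.58 ± 1.01 in 5C-E, with libraries that overlapped those of DMSO. Beyond -1 lay 2 of 3 members in 5C-C, beside 20.2% of all genes tested, and 2 of 3 in 5C-E, beside 10.7%, and beyond 1 lay 1 of 3 in 5C-C, beside 20.4%. That gene was Cyp4a12a, whose value turned to -0.51 without 5C-C library A. These comparisons share the DMSO libraries.

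The balance between Cyp4a10 and Cyp4a14 also differed between groups. Because FPKM is per length, both genes can be set on 1 scale. The FPKM of Cyp4a14 divided by that of Cyp4a10 was 0.85 and 0.762 in 5C, 0.805 and 0.841 in 5C-G and 0.772 in 5C-S, so it was alike in groups whose levels differed several-fold. In 5C-F it was 1.68 and 1.72, the only group with more Cyp4a14 than Cyp4a10. In DMSO it was 0.541 and 0.228. In 5C-E it was 0 in both libraries, since 27 and 14 counts of Cyp4a10 stood against none of Cyp4a14, and in 5C-C it was 0 and 0.232. These low ratios rest on few or no counts of Cyp4a14, which had 36 and 18 in DMSO. In 5C-E and 5C-C they also rest on few counts of Cyp4a10, a gene that shares sequence with Cyp4a32.

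**Figure D3:**
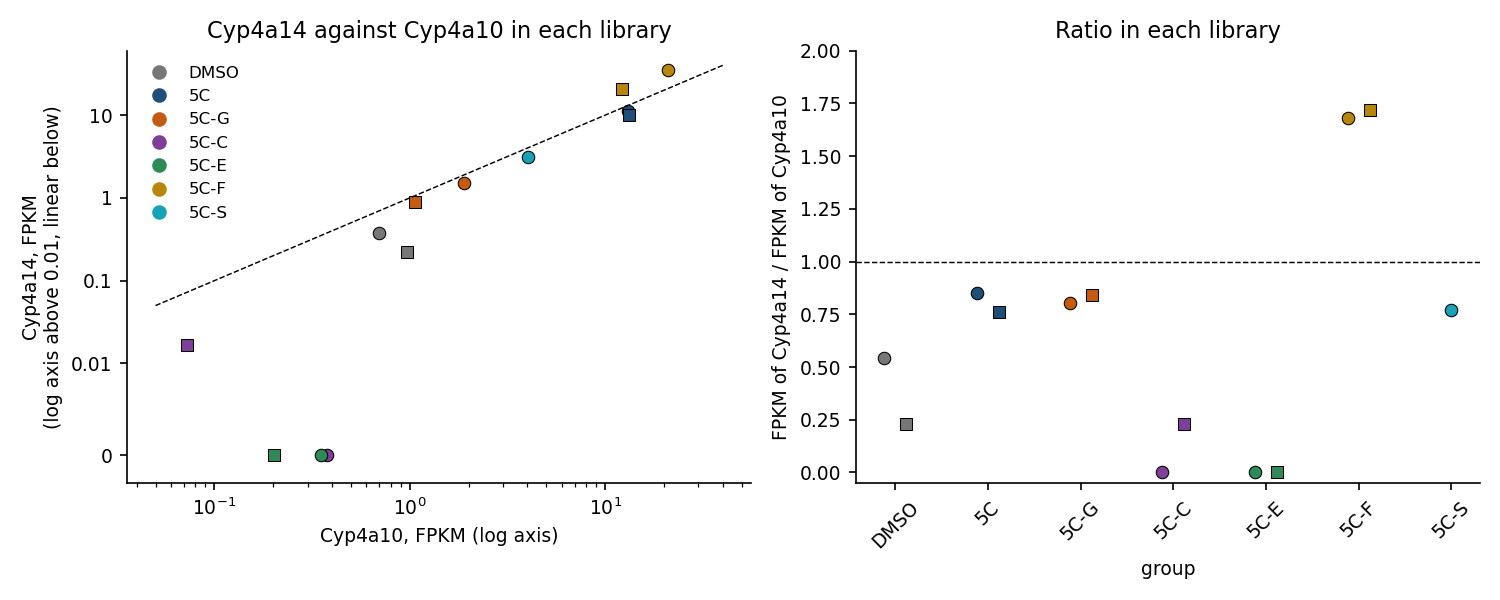
Left, FPKM of Cyp4a14 (vertical axis, logarithmic above 0.01 and linear below) against FPKM of Cyp4a10 (horizontal axis, logarithmic) in each of the 13 libraries, with a dashed line of equality. Right, their ratio by group, with library A as circles and library B as squares. Only the 5C-F libraries, at 1.68 and 1.72, lie above a ratio of 1.

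**Figure D4:**
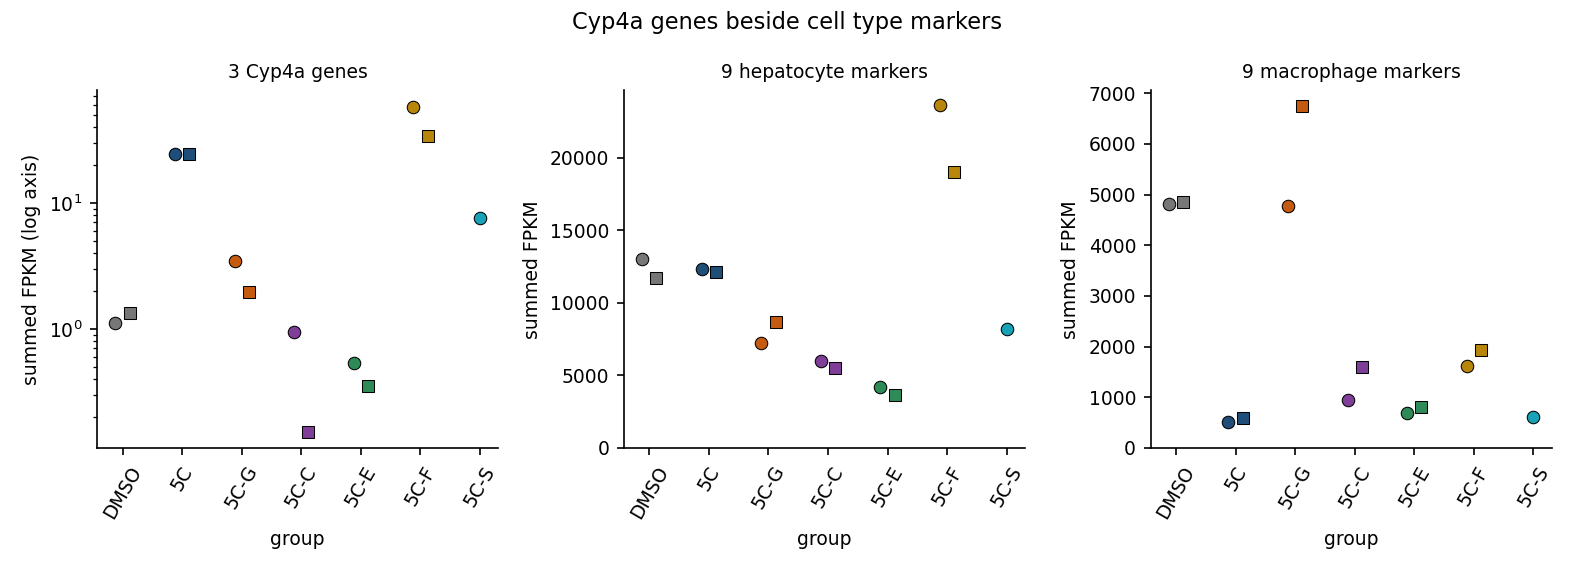
Summed FPKM of the 3 Cyp4a genes (left, logarithmic axis), of 9 hepatocyte markers (middle) and of 9 macrophage markers (right) in each library by group, with library A as circles and library B as squares. The Cyp4a sum was 24.6 and 24.4 in 5C against 1.12 and 1.35 in DMSO, while the hepatocyte markers of these groups lay between 11744 and 12998.

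The rest of the Cyp4 family was read from a list of 18 genes, of which 13 were tested. In 5C against DMSO, 0 were called higher and 1 lower, beside 4.55% of all genes called. The gene was Cyp4f18, a leukotriene hydroxylase of myeloid cells, at -2.88 ± 0.56 (adjusted p = 0.00315), a call that was lost without 5C library A (adjusted p = 0.0792). In 5C-C and in 5C-E against 5C, 3 of 13 fell and 0 rose, beside 20.2% and 1.96% of all genes called. They were Cyp4a31, Cyp4f14 and Cyp4f15, of which the latter pair belong to the 4F subfamily of omega hydroxylases. In 5C-G 2 of 13 rose, beside 13.1% (1 without 5C library A or 5C-G library B), and in 5C-F 0 were called, beside 4.84%, with 5 at an unadjusted p under 0.05 and 0 to 2 called by the other tools and settings. Without 5C library B or 5C-E library B, 0 of the 13 were called in 5C-E.

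Cyp4a31 is another gene of the 4A subfamily at the locus. Its FPKM was 0.654 and 0.921 in DMSO, 2.66 and 2.28 in 5C, 1.07 and 1.27 in 5C-G, 0.079 and 0.288 in 5C-C, 0.668 and 0.146 in 5C-E, 6.2 and 3.5 in 5C-F and 1.68 in 5C-S. It fell in 5C-C (-3.50 ± 0.62, adjusted p = 0.000431) and in 5C-E (-2.65 ± 0.59, adjusted p = 0.018, and 0.117, 0.081 and 0.3 without 5C library A, 5C library B or 5C-E library B). Its values of 1.58 ± 0.56 in 5C against DMSO (adjusted p = 0.121), -0.94 ± 0.54 in 5C-G (adjusted p = 0.228) and 1.08 ± 0.53 in 5C-F (adjusted p = 0.212) did not pass.

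Over the 13 libraries, which share 7 treatments and differ in depth, the log2 CPM (count scaled to library size) of Cyp4a10 and Cyp4a14 correlated at r = 0.96 (Spearman's rho 0.93). The r of Cyp4a31 was 0.88 with Cyp4a10 and 0.93 with Cyp4a14. Cyp4a12a correlated at 0.55 with Cyp4a10 and 0.39 with Cyp4a14. These values are descriptions, since libraries of 1 group are not independent points of a trend.

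Of 14 other genes in the tables within 300 kb of a member, 12 were tested. Pdzk1ip1, which encodes a small membrane protein, was called higher in 5C against DMSO (1.22 ± 0.21, adjusted p = 0.00115), in 5C-C (1.18 ± 0.21, adjusted p = 0.000409) and in 5C-F (1.14 ± 0.21, adjusted p = 0.00334). The call in 5C-C was lost with an offset for GC content and transcript length (0.30), with limma (0.96) and without 5C-C library B (0.98). That in 5C-F was lost with the offset (0.71), with limma (0.97) and without 5C-F library B (0.87), and without 5C library A its adjusted p was 0.0621. Cyp4a31 was called lower in 5C-C and 5C-E as above, and no other neighbour was called in any of the 5 comparisons. Cyp4b1, a P450 of another subfamily at the same locus, ran from -0.61 to 0.69 with no call, and Cyp4a32 from -2.36 ± 0.98 in 5C-G to 0.65 ± 0.89 in 5C-F, also with no call.

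The receptors and cofactors of the pathway were read from a list of 18 genes, all tested. In 5C against DMSO 0 were called by edgeR, with 3 at an unadjusted p under 0.05 and 0 called by any other tool or setting run with adjusted p, and the median log2 fold change was -0.09, beside 0.01 over all genes tested. Ppara itself had an FPKM of 2.08 and 2.08 in DMSO and 1.84 and 1.66 in 5C (-0.32 ± 0.36, adjusted p = 0.729). Cyp4a10 and Cyp4a14 were 15-fold and 33.2-fold higher in the same comparison. The activity of the receptor, as opposed to its RNA, was not measured in any group, and its part in their levels was not tested. Rxra, its partner, was at -0.17 ± 0.16 (adjusted p = 0.669).

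In 5C-G 3 of 18 fell and 0 rose, beside 13.1% of all genes called, and 1 to 4 were called by the other tools and settings. Ppargc1a, a coactivator of mitochondrial and fatty acid oxidation genes, fell by 2.46 on the log2 scale (-2.46 ± 0.51, adjusted p = 0.00219), and Lpin1, a phosphatidate phosphatase that also coactivates PPARA, fell (-1.56 ± 0.18, adjusted p = 1.1e-05). Ppara fell (-1.27 ± 0.37, adjusted p = 0.0191), a call that was lost without 5C library A (adjusted p = 0.0956), 5C library B (0.0575) or 5C-G library B (0.203).

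In 5C-C 8 of 18 fell and 1 rose, beside 20.2% of all genes called, with a median of -0.88 (0.00 over all genes). Among them were Ppargc1a (-2.06 ± 0.50, adjusted p = 0.00388), Lpin1 (-1.69 ± 0.18, adjusted p = 8.72e-06) and Ppara (-1.43 ± 0.38, adjusted p = 0.00685, and 0.0878 without 5C-C library B). With an offset for GC content and transcript length 2 of the 18 were called in place of 9, and Ppargc1a was not among them (adjusted p = 0.08). In 5C-E, where Cyp4a14 had no read, 0 of 18 were called by edgeR, with 7 at an unadjusted p under 0.05 and 0 or 1 called by the other tools and settings. Ppara was at 1.38 and 1.55 FPKM there, with a log2 fold change of -0.33 ± 0.36 (adjusted p = 0.748). In 5C-F 0 of 18 were called, with 5 at an unadjusted p under 0.05 and 0 called by the other tools and settings run with adjusted p. Ppara was at 0.11 ± 0.36 (adjusted p = 0.893) there.

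Other target genes of PPARA were read from a list of 48 genes, of which 46 were tested. In 5C against DMSO, 3 of 46 rose and 0 fell, beside 4.55% of all genes called, and the list's median was 0.25 (0.01 over all genes). Fabp1, the fatty acid-binding protein of the hepatocyte cytosol, rose from 5.63 and 5.92 to 42.2 and 28 FPKM (2.53 ± 0.30, adjusted p = 1.67e-05). Acot1, a cytosolic acyl-CoA thioesterase, rose (1.43 ± 0.19, adjusted p = 7.81e-05), and so did Pdk4, which restrains glucose oxidation (1.18 ± 0.30, adjusted p = 0.0206, and 0.103 to 0.188 when any 1 of the 4 libraries was left out). The value of Cpt1a, the liver carnitine palmitoyltransferase of mitochondria, did not pass (-0.19 ± 0.18, adjusted p = 0.666). The fatty acid transporter Cd36 was at 0.82 ± 0.25 (adjusted p = 0.0632).

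**Figure D5:**
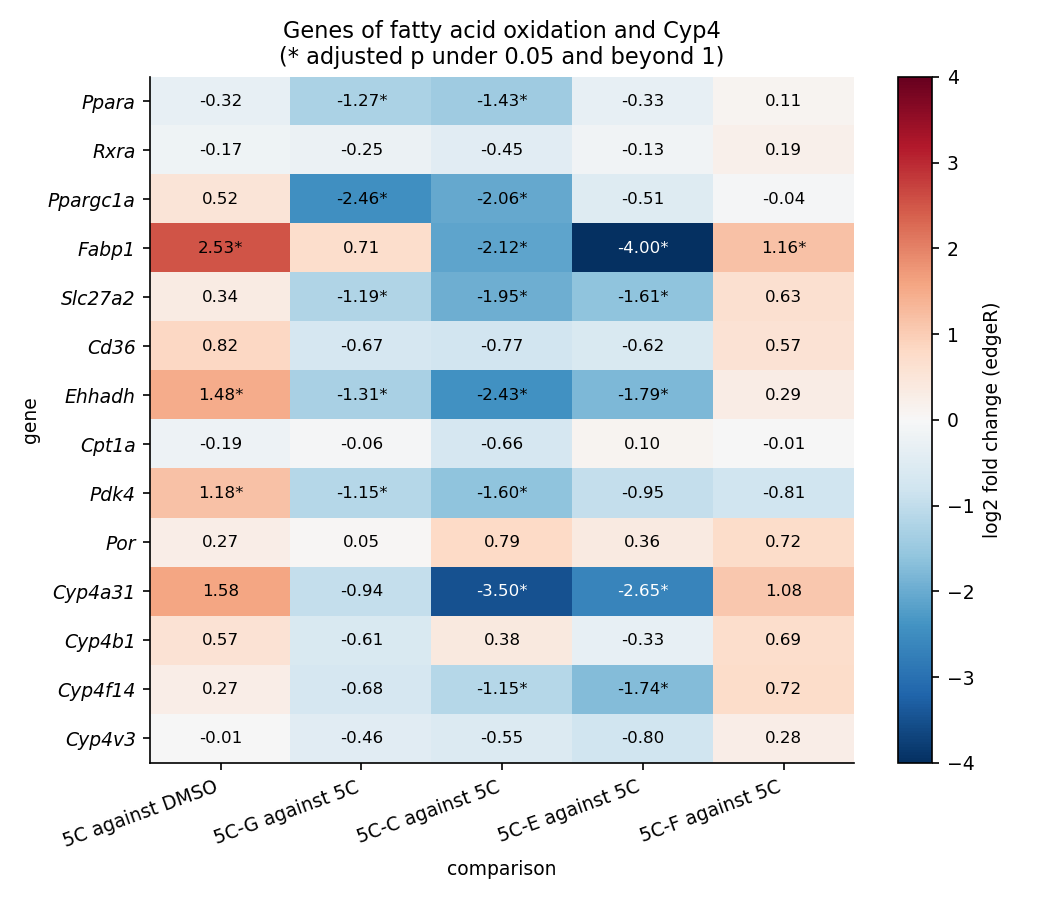
Log2 fold change (colour and printed value) of genes of the PPARA pathway, of fatty acid oxidation and of the other Cyp4 genes (rows) in the 5 comparisons (columns), with an asterisk for adjusted p under 0.05 and a change beyond 1 or -1. Ehhadh and Slc27a2 carry an asterisk in 5C-G, 5C-C and 5C-E, while Ppara carries one in 5C-G and 5C-C and is at -0.33 in 5C-E.

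In 5C-C 6 of 46 fell and 1 rose, beside 20.2% of all genes called, with a median of 0.09. Fabp1 fell (-2.12 ± 0.29, adjusted p = 7.04e-05), as did Pdk4 (-1.60 ± 0.30, adjusted p = 0.000629). In 5C-E 5 of 46 fell and 0 rose, beside 1.96% of all genes called, with a median of -0.45 (0.01 over all genes), and 3 were called without 5C-E library B. Fabp1 fell to 2.78 and 1.77 FPKM (adjusted p = 2e-06) and Plin5, a lipid droplet protein, fell by 1.77 on the log2 scale (-1.77 ± 0.23, adjusted p = 0.000168), whereas Cpt1a was at 0.10 ± 0.18 (adjusted p = 0.877).

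In 5C-G 5 of 46 fell and 0 rose, beside 13.1% of all genes called, with a median of -0.13, and 3 to 6 were called by the other tools and settings. They included Scd1, the stearoyl-CoA desaturase (-1.23 ± 0.22, adjusted p = 0.000744), and Acsl1, the main long-chain acyl-CoA synthetase (-1.20 ± 0.23, adjusted p = 0.00119), both no longer beyond 1 with an offset for GC content and transcript length (-0.93 and -0.97). Fabp1 did not follow Cyp4a10 and Cyp4a14 here. It stood at 52.6 and 51.7 FPKM, above both 5C libraries, with a log2 fold change of 0.71 ± 0.27 (adjusted p = 0.0659). In 5C-F 2 of 46 rose and 0 fell, beside 4.84% of all genes called, namely Fabp1 (1.16 ± 0.27, adjusted p = 0.0142) and Gpd1, the cytosolic glycerol-3-phosphate dehydrogenase (1.13 ± 0.21, adjusted p = 0.00314), and 0 of 46 were called without 5C library B or without 5C-F library B.

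The enzymes that act before and after omega hydroxylation were read from a list of 32 genes, of which 30 were tested. Por, the electron donor of the hydroxylases, ran from 41 to 83.5 FPKM over the 13 libraries. It rose by less than the fold a call needs in 5C-C (0.79 ± 0.17, adjusted p = 0.00204) and in 5C-F (0.72 ± 0.17, adjusted p = 0.017). In 5C against DMSO 2 of 30 rose and 1 fell, beside 4.55% of all genes called, with a median of 0.32. Ehhadh, the bifunctional enzyme of peroxisomal beta oxidation, rose from 8.84 and 7.1 to 23.2 and 23.5 FPKM (1.48 ± 0.31, adjusted p = 0.00529, and 0.101 without DMSO library B), and the peroxisomal thiolase Acaa1b rose as well (1.27 ± 0.22, adjusted p = 0.0012).

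In 5C-C 4 of 30 fell and 0 rose, beside 20.2% of all genes called, and 10 were called without 5C-C library A. In 5C-E 5 of 30 fell and 0 rose, beside 1.96%, and 3 were called without 5C-E library B. In 5C-G 6 of 30 fell and 1 rose, beside 13.1%, and 3 were called without 5C-G library B. The medians were -0.37, -0.49 and -0.39. Adh1, Slc27a2, Ehhadh and the acetyl-CoA hydrolase Acot12 fell in each of these. Acot12, at -1.87, -1.64 and -1.55, lost its call in 5C-E without any 1 of the 4 libraries (adjusted p = 0.0518 to 0.267) and in 5C-G without 5C-G library B (0.0603). Adh1, a class I alcohol dehydrogenase that can oxidise omega-hydroxy fatty acids, fell from 106 and 101 FPKM in 5C to 40.1 and 42.9 in 5C-C, 34.7 and 28.2 in 5C-E and 39.5 and 41.8 in 5C-G (adjusted p = 0.000133, 1.09e-05 and 0.000111). Slc27a2, a very long-chain acyl-CoA synthetase and fatty acid transporter, fell by 1.95, 1.61 and 1.19 on the log2 scale in the same order (adjusted p = 4.63e-05, 0.000943 and 0.00196). Ehhadh fell by 2.43, 1.79 and 1.31 (adjusted p = 5.64e-05, 0.00286 and 0.0049), the latter 2 calls being lost without 5C-E library B (adjusted p = 0.0909) or 5C-G library B (0.0675). These comparisons share the 5C libraries. Of 9 hepatocyte markers, 4 were called lower without CID755673, 6 without ETC-1002 and 3 without GSK429286A, where 1, the apolipoprotein gene Apoa1, was called higher (1.63 ± 0.22, adjusted p = 6.78e-05). In that order Alb was at -1.50, -2.03 and -0.99. Their part in the change of these enzymes was not tested. In 5C-F 1 of 30 rose and 0 fell, beside 4.84%, and this was Acaa1b (1.26 ± 0.22, adjusted p = 0.00236, and 0.0613 without 5C library B).

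Genes known to differ between male and female liver were listed because of Cyp4a12a. Of 14 male-biased genes tested, 2 rose and 0 fell in 5C against DMSO, beside 4.55% of all genes called. Against 5C, 2 of them fell without GSK429286A (beside 13.1%), 3 fell and 1 rose without CID755673 (beside 20.2%), 3 fell without ETC-1002 (beside 1.96%) and 2 rose without forskolin (beside 4.84%). Of 11 female-biased genes tested, 1 rose and 1 fell in 5C against DMSO, and 1 was called without DMSO library A or 5C library A. Against 5C, 6 fell and 1 rose without GSK429286A, 5 fell and 1 rose without CID755673, 3 fell without ETC-1002 and 1 rose without forskolin, beside the same shares of all genes. The call without forskolin was lost when any 1 of the 4 libraries was left out. The female-biased genes called numbered 4 in 5C-G without 5C library B or 5C-G library B, 3 in 5C-C without 5C-C library B, and 2 in 5C-E without 5C library B or 5C-E library B. The male-biased genes called numbered 1 in 5C-G without 5C library A or 5C-G library B, and 1 in 5C-F without 5C library A, 5C library B or 5C-F library B. The hepatocyte markers called in 5C-G, 5C-C and 5C-E are given above, and their part in these counts was not tested. Mup20, a male-biased urinary protein, rose in 5C (3.44 ± 0.44, adjusted p = 4.42e-05) and fell in 5C-E (-5.52 ± 0.50, adjusted p = 5.41e-06) and 5C-C (-4.67 ± 0.48, adjusted p = 6.89e-06). Cyp17a1, a steroid hydroxylase on the female-biased list, fell in 5C-C (-2.89 ± 0.23, adjusted p = 9.52e-07) and 5C-E (-2.75 ± 0.23, adjusted p = 2.66e-06).

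Among all genes that passed the filter, those most like each member were ranked by Pearson's r of log2 CPM over the 13 libraries. For Cyp4a10 they were Mup20 (r = 0.97), Bhmt2 (0.97), Bhmt (0.96), Ehhadh (0.95) and Serpinc1 (0.95). For Cyp4a14 they were Ces2e (0.97), Mup20 (0.96), Cyp2d9 (0.94), Serpinc1 (0.94) and Bhmt (0.93). On the log2(FPKM + 1) scale 2 of these 5 remained among the 5 most like Cyp4a10 and 0 of 5 for Cyp4a14, and by Spearman's rho 3 and 1 did. For Cyp4a12a they were Zfp180 (0.96), Optn (0.93), Nudt4 (0.93), Pttg1ip (0.93) and Crp (0.91). The latter 5 spanned far smaller ranges than Cyp4a12a, Zfp180 running from a mean of 3.02 FPKM in 5C-G to 4.73 in 5C, and 0 of them were among the 5 most like on the log2(FPKM + 1) scale and 2 by Spearman's rho. On the log2(FPKM + 1) scale r was 0.94 to 0.98 for the 5 genes of Cyp4a10 and 0.85 to 0.94 for those of Cyp4a14. For those of Cyp4a12a it was 0.68 to 0.82. The choice of the 5 genes therefore depends on the measure, although those of Cyp4a10 and Cyp4a14 kept a high r.

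Against named genes of the pathway the r of Cyp4a10 was 0.91 with Slc27a2, 0.82 with Alb, 0.78 with Fabp1 and 0.53 with Ppara. The r of Cyp4a14 was 0.91 with Ehhadh, 0.88 with Fabp1, 0.84 with Alb and 0.41 with Ppara. For Cyp4a12a it was 0.83 with Hnf4a, a transcription factor of hepatocytes, and 0.15 with Fabp1. All of these are descriptions over 13 libraries of 7 treatments.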

How the data were processed

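RNA of dHeps in 7 groups (13 libraries) was sequenced as paired reads, and per the labels the libraries were made with the NEBNext Ultra RNA kit. The submitters' processing notes name featureCounts, Subread, DESeq2 and GRCm39, with no version. The annotation, strand setting and treatment of multiply mapped reads are not given in the sources used here. The authors deposited whole read counts per gene and FPKM values of the same libraries. For 27140 of 27141 genes the FPKM equals the count divided by 1 length and by the total count, within 0.2%. The columns name the group but not the sample, so A and B follow the order of the columns and pair nothing.

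Counts were fitted with edgeR 4.0.16 (R 4.3.3) by the quasi-likelihood test with TMM factors, 1 mean per group and all 13 libraries in 1 fit, after filterByExpr with a minimum count of 10, which kept 19884 genes. P-values were adjusted over all of them by the Benjamini-Hochberg method. A call needs an adjusted p under 0.05 and a log2 fold change beyond 1. The methods of the study name DESeq, and DESeq2 1.42.0 and limma 3.58.1 on log2(FPKM + 1) were run as alternatives. SE values of fold changes come from the edgeR fit. A group with 3 or fewer counts in every library was treated as at the floor. Against a group at 0 a fold is a bound at 3 counts per library, and against a group with 1 to 3 counts it is the ratio of pooled counts with its interval. Intervals of count ratios (95%, Clopper-Pearson) and floors cover counting error only. Likeness used log2 CPM with a prior count of 2. The scripts were tested on simulated data. Coordinates and transcripts came from GENCODE M39 on GRCm39, matched by identifier for 26905 genes. The members and gene lists were chosen with earlier results of these data known. Beyond the members, the text names the genes of highest and lowest log2 fold change among those called (up to 3 each per list and comparison), a fixed set of pathway genes (some of its results are not reported here), the 5 genes most like each member, and called neighbours within 300 kb. Cyp4a12b, Cyp4a32, Hnf4a, Pecam1, Cdh5 and Gm52676, and genes given in comparisons where they were not called, were named after their values were seen. The depth was 30195867 to 45491932 counts per library.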

Additional observations from a re-analysis of the deposited data

How the results depend on the processing

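No paired analysis was possible because the running numbers in the column names do not match the replicate numbers of the sample labels, so they tie no library to another. Of the alternatives run, 106 of 115 for Cyp4a10, 104 of 114 for Cyp4a12a and 99 of 115 for Cyp4a14 left the log2 fold change within the spread between libraries. Leaving out 1 library changed the sign of the following values. Cyp4a12a in 5C-C against DMSO, at 1.69, became -0.51 without 5C-C library A (range -0.51 to 2.82), a move larger than the spread between libraries. Within that spread, Cyp4a12a in 5C-C against 5C (-0.83) became 0.40 without 5C library B and 0.03 without 5C-C library B, in 5C-E against DMSO (0.58) -0.04 without DMSO library A, and in 5C-S against 5C (-0.33) 0.88 without 5C library B, and Cyp4a10 in 5C-F against 5C (0.43) became -0.06 without 5C-F library A. The count of members beyond the fold was 2 in 5C-F against 5C, both higher, and against DMSO 2 in 5C-G (1 higher and 1 lower), 3 in 5C-C (1 higher and 2 lower) and 2 in 5C-E (both lower). With 1 library left out, the members beyond the fold in 5C-F against 5C numbered 1 to 2, and limma on log2(FPKM + 1) gave 1. Against DMSO, limma gave 0 members in 5C-G, 0 in 5C-C and 0 in 5C-E, since the pseudocount of 1 compresses low values, and fitting only the libraries of both groups gave 1 in 5C-G. Over all lists together, 27 genes were called in 5C-G, 19 in 5C-E and 6 in 5C-F against 5C. Leaving out 1 library gave 15 to 34, 11 to 18 and 1 to 10. Limma gave 17 in 5C-G and 3 in 5C-F. In 5C-F no filter, the DESeq2 Wald test and fitting only both groups' libraries each gave 10, and an unadjusted p under 0.05 gave 12. Over all genes, limma called 558 in place of 905 in 5C against DMSO, 1355 in place of 2607 in 5C-G, 2301 in place of 4011 in 5C-C, 213 in place of 390 in 5C-E and 336 in place of 962 in 5C-F. An offset for GC content and transcript length, chosen after seeing the data, called 2021 in 5C-C. Fitting only both groups' libraries called 1371 in 5C against DMSO and 642 in 5C-E, and leaving out 1 library gave 1395 to 3945 in 5C-G, 138 to 393 in 5C-E and 294 to 953 in 5C-F. Scaling by total counts alone moved the median of all genes to -0.14 in 5C-G, -0.15 in 5C-C and -0.11 in 5C-F. A minimum of 10 counts in every library removes all 3 members and gives no value for them. Across 19787 genes, which are not independent replicates, Spearman's rho of the log2 fold change with GC content was -0.18 in 5C against DMSO, and against 5C it was 0.35 without GSK429286A, 0.41 without CID755673, 0.32 without ETC-1002 and 0.26 without forskolin. The cause of these shifts was not tested. With 2 libraries a group, and 1 for 5C-S, and with few counts of Cyp4a12a, precision is limited.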
